A study of Homo sapiens with 6 samples.

Results

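The 12 windows described here lie at annotated start sites of protein-coding or long non-coding RNA genes and hold a microRNA (miRNA) gene. They were chosen by 2 conditions, an overlap of at least 20 bases with a RefSeq miRNA gene and enough reads to pass the filter on low counts. Of 53603 windows in the study, 94 protein-coding or lncRNA windows held a miRNA gene, and these 12 were the ones that passed. They held 11 miRNA genes at 10 loci, because the MIR423 and MIR1908 loci each fell in 2 overlapping windows and MIR3184 lies opposite MIR423. The read counts of both arms entered the choice, which was also made with earlier results of these data in view.

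The cells were HEK293T, a line derived from human embryonic kidney, and their small RNA was sequenced 48 h after they had been given 150 nM of siRNA. One arm of 3 libraries received a control siRNA and the other arm of 3 an siRNA that targets SSB, the gene of the RNA-binding protein La. Both arms are the same cell line under the same growth conditions, and the series text calls the libraries biological replicates without naming separate cultures, so p-values measure the spread between these libraries. Reads were counted in windows of 400 bp that begin 150 bp before a start site and end 250 bp after it.

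A miRNA is cut from a hairpin inside a longer transcript, by the nuclear enzyme Drosha and then by the cytoplasmic enzyme Dicer, and guides Argonaute proteins to messages that match its seed. The seed is bases 2 to 8 of the mature miRNA. For a few genes, of which MIR484 is a known case, the hairpin is itself the start of the RNA polymerase II transcript: it carries a cap and does not need Drosha. La recognises the run of U that ends a newly made RNA polymerase III transcript and has also been described to bind miRNA precursors. Because the library kit ligates small RNA, a window that covers a hairpin can count the mature miRNA as well as RNA from the promoter.

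Total counts over all windows ran from 3066299 to 4105806 per library, and the 1064 windows tested held from 99.5% to 99.7% of them. Among the SSB start-site windows, PCG_40419 had 4, 3 and 3 counts under control siRNA and 1, 0 and 0 under La siRNA. Another, PCG_12982, had 0, 0 and 1 counts under control siRNA and 0, 2 and 0 under La siRNA. Both had too few counts to test and count small RNA rather than SSB mRNA, so they do not show whether SSB was lowered. Counting noise alone did not account for the difference between any pair of replicates (chi-square of at least 62.3 per degree of freedom). Start windows of 7 miRNA genes of blood, liver, muscle and nerve were looked for as signs of other cells, and 0 of the 7 had a window in the table. Windows are set by annotated start sites and not by reads, so this check could not tell whether other cells were present.

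The mature miRNAs below, from RefSeq (GRCh38.p14), are the products of the loci on which the results turn, written 5′ to 3′ with the seed in capitals.
hsa-miR-423-5p: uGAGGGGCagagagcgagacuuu
hsa-miR-423-3p: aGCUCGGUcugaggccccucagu
hsa-miR-3184-5p: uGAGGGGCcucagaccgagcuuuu
hsa-miR-484: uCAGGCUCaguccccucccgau
hsa-miR-92b-5p: aGGGACGGgacgcggugcagug
hsa-miR-92b-3p: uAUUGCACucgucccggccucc
hsa-miR-330-5p: uCUCUGGGccugugucuuaggc
hsa-miR-330-3p: gCAAAGCAcacggccugcagaga
hsa-miR-2110: uUGGGGAAacggccgcugagug
hsa-miR-1908-5p: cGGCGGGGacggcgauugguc
hsa-miR-7706: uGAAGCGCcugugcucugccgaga
hsa-miR-3615: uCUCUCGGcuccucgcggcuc

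In all, 16 mature miRNAs of these loci were found in RefSeq, with 15 different seeds. The 1 seed found more than once among them was that of hsa-miR-423-5p and hsa-miR-3184-5p. They come from opposite strands of the same locus but from different bases, positions 30117095 to 30117117 and 30117128 to 30117151. The seed of hsa-miR-92b-3p is also that of 5 other human miRNAs, namely miR-25-3p, miR-32-5p, miR-363-3p, miR-367-3p and miR-92a-3p. hsa-miR-484 shares its seed with miR-3155a and miR-3155b, and hsa-miR-330-5p shares its seed with miR-326. That of hsa-miR-1908-5p is also found in miR-663a, miR-6787-5p and miR-10396b-5p. None of the 16 was identical to a mature miRNA of another gene in that table. The 16 include hsa-miR-1292-5p, hsa-miR-1292-3p, hsa-miR-1908-3p and hsa-miR-3184-3p, which are not printed above. The product of MIR6850 is not shown here.

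The question for each locus was whether its hairpin begins at a start site of the host gene. Under the criterion used, a hairpin whose 5′ end lay within 20 bases of the start site of its window and on the same strand, 0 of the 11 miRNA genes did so. Within 50 bases, 4 did: MIR484, MIR2110, MIR3615 and MIR7706. MIR484, the known case named above, began 27 bases after the annotated start, so the 20-base criterion missed it. The count of 0 therefore holds for annotated starts at that cutoff only. Measured to the nearest GENCODE start of any transcript of the host gene, a criterion added after the data had been seen, MIR330 and MIR7706 began within 20 bases. Annotated starts differ between transcripts of a gene, so the answer depended on which one was used.

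**Figure D1:**
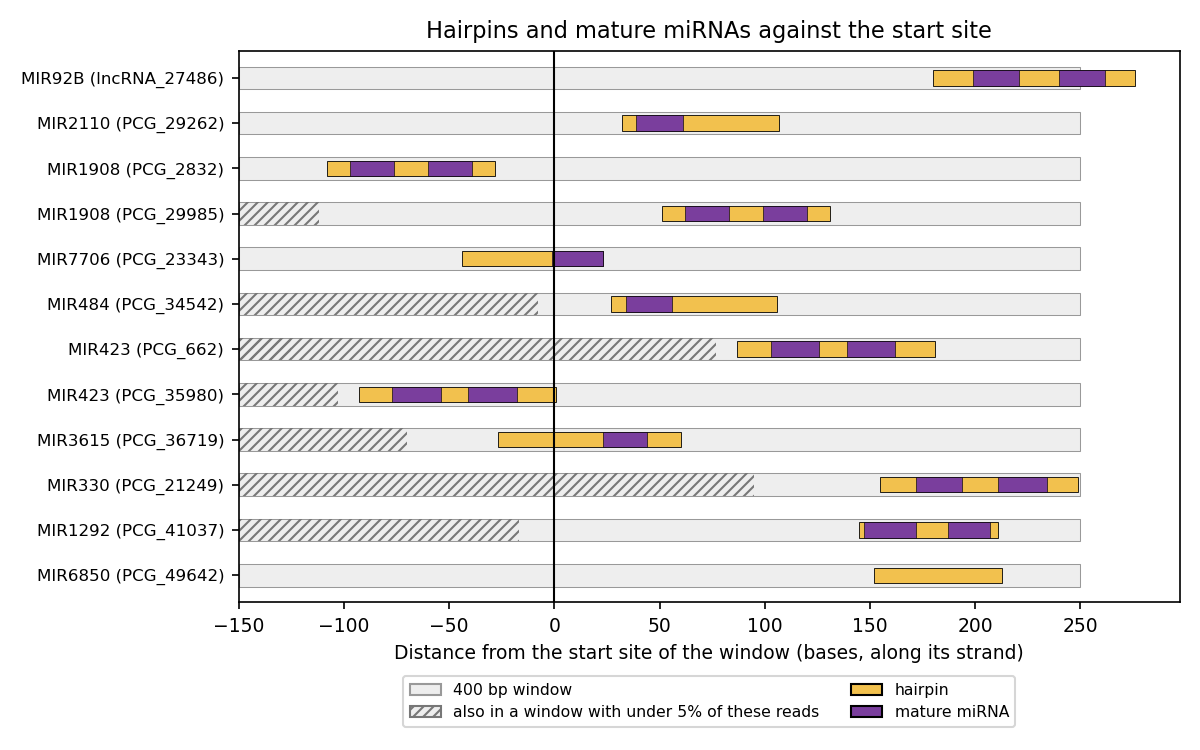
Positions of the hairpin (yellow) and the mature miRNAs (purple) in each of the 12 windows (grey), in bases from the start site of the window along its strand. Hatching marks bases also covered by an overlapping window with under 5% of the member's reads, and MIR7706 and MIR3615 are seen to span the start site while MIR423 and MIR330 lie beyond hatched bases (MIR3184 and the mature product of MIR6850 are not drawn).

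MIR484 lay close behind its start site. Its window PCG_34542 (chromosome 16, positions 15643117 to 15643516) starts NDE1, which encodes a dynein-binding protein needed for cell division. The hairpin, positions 15643294 to 15643372 on the plus strand, began 27 bases after the NDE1 start and the mature miRNA began 34 bases after it. It lies in an exon of 1 of 1 NDE1 transcripts over it, outside the coding sequence. MIR2110 (positions 114174105 to 114174179, minus strand of chromosome 10) began 32 bases after the start of PCG_29262, a CCDC186 window at positions 114173962 to 114174361. It was 23 bases from the nearest CCDC186 transcript start and in a non-coding part of an exon in 4 of 4 transcripts.

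The hairpins of MIR7706 and MIR3615 spanned the start site, and that of MIR423 ended on the start site of PCG_35980, so a transcript that begins at such a site does not hold the whole hairpin. MIR7706 (chromosome 15, positions 85380596 to 85380662) began 44 bases before the start site of PCG_23343, a window of AKAP13, which encodes a protein kinase A anchor. The first base of hsa-miR-7706 lay 1 base before that start site, so the annotated transcript and the mature miRNA begin at adjacent bases. Another AKAP13 transcript, AKAP13-211, starts 9 bases before the hairpin, and 2 of 3 AKAP13 transcripts over MIR7706 hold all of it. MIR3615 (chromosome 17, positions 74748613 to 74748699) began 27 bases before the start site of PCG_36719. This is a window of SLC9A3R1, now named NHERF1, a scaffold protein under the cell membrane. Of 2 transcripts over MIR3615, 0 held the whole hairpin, and hsa-miR-3615 itself began 23 bases after the start site.

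The other hairpins lay further away. MIR92B began 180 bases after the start site of lncRNA_27486 (chromosome 1, positions 155194847 to 155195246), at which the lncRNA gene THBS3-AS1 starts in RefSeq (AC234582.1 in GENCODE). The window ended inside that hairpin and held 10 of the 22 bases of hsa-miR-92b-3p, but all of hsa-miR-92b-5p. MIR1292 began 145 bases after the start of NOP56, which encodes a core protein of box C/D snoRNPs, and MIR6850 began 152 bases after a start of RPL8, a ribosomal protein gene. MIR330 began 155 bases after the start of an EML2 window. MIR1908, in FADS1, a fatty acid desaturase gene, began 51 bases after the start site of PCG_29985 and 108 bases before that of PCG_2832. MIR423, in NSRP1, a splicing regulator gene, began 87 bases after the start site of PCG_662, and its last base was the start site of PCG_35980.

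Overlapping windows showed where in a window the reads lay, provided that both windows were counted alike on both strands. At MIR330, the window PCG_21249 (chromosome 19, positions 45638993 to 45639392) held 371 reads over the 6 libraries. PCG_38673, which covers its bases from 45639148 on, including the EML2 start site, held 1 read. If both windows were counted alike on both strands, nearly all MIR330 reads lay in the last 155 bases, of which 94 are the hairpin, and not at the start site of the window. The start of another EML2 transcript lies within those bases, 17 bases before the hairpin. A read over an edge may be counted in 1 or both windows.

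The same comparison placed the MIR423 reads. PCG_662 (chromosome 17, positions 30116842 to 30117241) and PCG_35980 (positions 30117022 to 30117421) held 16755 and 16752 reads and differed by at most 2 counts in a library. PCG_661, which ends at position 30117068, held 7 reads. On the same condition, that leaves 173 bases, positions 30117069 to 30117241, which include all 94 bases of the MIR423 hairpin and the antisense MIR3184. Counts cannot separate the 2 genes, because the use of strand is not given in the sources used here.

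At MIR1908 the 2 windows held 159 and 161 reads and differed by at most 1 count in a library, which places nearly all reads in the 241 bases they share. The shared bases include the whole hairpin and the start site of PCG_2832, but not that of PCG_29985. At MIR484 the overlapping window PCG_34541 upstream held 3 reads against 799. If both were counted alike on both strands, this left 258 bases with the NDE1 start and the hairpin. For MIR3615 and MIR1292 the overlapping windows upstream held 0 reads. The RPL8 window of MIR6850 shared bases with PCG_49643, which held 19 reads against 104, so part of its reads may lie at the start site. The MIR92B, MIR2110 and MIR7706 windows overlapped no other window.

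Levels at the 10 loci differed by up to 383 times in the control arm. All windows have the same length, so levels are compared as CPM per window, scaled by TMM factors. MIR423 stood far above the rest with 549 ± 51.8 CPM in the control arm (SD, n = 3), and it made up 86.5% of the reads at the 10 loci. MIR92B followed with 20.8 ± 3.07 CPM and MIR484 with 18.8 ± 4.43 CPM, which did not differ beyond their spread. MIR330 was at 12.2 ± 0.897 CPM and MIR2110 at 8.06 ± 1.68 CPM. MIR1908, MIR7706 and MIR6850, at 4.69 ± 1.89, 3.93 ± 2.72 and 3.83 ± 0.779 CPM, did not differ from each other beyond their spread. MIR1292 and MIR3615 were lowest, at 2.21 ± 1.28 and 1.44 ± 0.570 CPM (SD, n = 3).

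**Figure D2:**
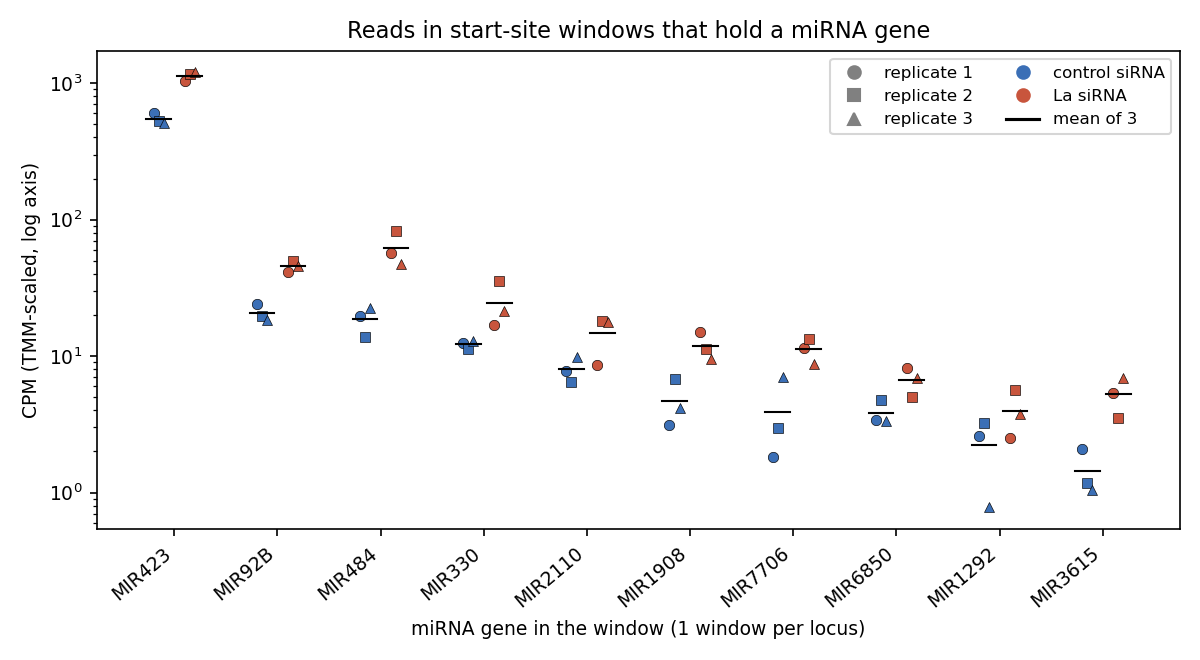
TMM-scaled CPM on a log axis in each library for 1 window per locus, ordered by the control mean, with the mean of 3 libraries as a bar. The MIR423 window runs from 511 to 608 CPM in the control arm and from 1039 to 1197 CPM in the La knockdown arm, and the arms overlap at MIR2110 and MIR1292.

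Each of the 12 windows had a higher fitted level in the La knockdown arm, by 1.75 to 3.58 times. At an adjusted p under 0.05, 5 of the 12 windows, or 4 of the 10 loci, were called higher and 0 lower (edgeR quasi-likelihood test, Benjamini-Hochberg adjustment over all windows tested, n = 3 per arm). Before adjustment, 11 windows were higher and 0 lower at p under 0.05 (edgeR). At that unadjusted threshold, 103 of all 1064 windows tested and 42 of the 197 protein-coding and lncRNA windows were higher. After adjustment, 0.658% of all 1064 windows were called higher and 4.79% lower. Over the 197 protein-coding and lncRNA windows, 3.55% were called higher and 2.03% lower. The filter itself bears on these counts, because MIR3615 passed it in 0 control libraries and 3 La knockdown libraries, MIR1908 and MIR7706 in 2 control and 3 La knockdown libraries, and MIR1292 in 1 control and 2 La knockdown libraries. A window that passes mainly through the arm where it is high is bound to look different, so these counts are descriptive.

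MIR484 had 76, 47 and 87 counts under control siRNA and 158, 280 and 151 under La siRNA. Every La knockdown library lay above every control library, and La knockdown replicate 2 was the highest. Mean levels were 18.8 ± 4.43 and 62.2 ± 18.1 CPM (SD, n = 3). The fitted log2 difference was 1.73 (SE 0.32, edgeR adjusted p = 0.0148). Its call held in 4 of the 6 fits that left out a library, and not without La knockdown replicate 1 (edgeR adjusted p = 0.121) or control replicate 2 (0.0622). In the authors' deposited table its log2 fold change was 1.42 (edgeR adjusted p = 0.0115), and it was 1 of 2 windows called higher there, which is 0.00373% of its windows. The other windows called here were not called in the authors' deposited table. MIR423 and MIR92B had log2 fold changes of 0.78 and 0.86 there (edgeR adjusted p = 1 for each) and MIR3615 one of 1.60 (edgeR adjusted p = 0.608). That table covers 53603 windows against 1064 tested here, so the calls do not rest on the same set of windows. Without a filter on low counts, the fit here gave log2 fold changes of 0.79 for MIR423 and 0.88 for MIR92B. It called 1 of the 12 windows.

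MIR423, from which hsa-miR-423-5p and hsa-miR-423-3p are cut, had 2330, 1789 and 1971 counts under control siRNA and 2897, 3969 and 3799 under La siRNA, counted in PCG_662. The arms did not overlap, and the lowest La knockdown library had 1039 CPM against 608 CPM in the highest control library. The log2 fold change was 1.05 (SE 0.22, edgeR adjusted p = 0.0223). With the most reads of the 10 loci it also had the smallest standard error. Of the 6 fits that left out a library, 3 did not call it: edgeR adjusted p was 0.115 without control replicate 2, 0.0735 without control replicate 3 and 0.121 without La knockdown replicate 1.

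MIR92B, a member of the miR-25 seed family, had 93, 67 and 71 counts under control siRNA and 115, 170 and 146 under La siRNA. The arms did not overlap in CPM, with 24.3 in the highest control library and 41.2 in the lowest La knockdown library. The log2 fold change was 1.13 (SE 0.26, edgeR adjusted p = 0.0359), and the call held in 1 of the 6 fits that left out a library, the fit without La knockdown replicate 3. Over those fits the log2 fold change ran from 1.05 to 1.26 and the edgeR adjusted p from 0.0466 to 0.154.

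MIR3615 had 8, 4 and 4 counts under control siRNA and 15, 12 and 22 under La siRNA. The arms did not overlap, at 1.44 ± 0.570 and 5.28 ± 1.70 CPM (SD, n = 3). The log2 fold change was 1.84 (SE 0.46), the largest of the 12 windows, on a mean of 10.8 counts. It passed the filter through the La knockdown arm alone, so its call is not read as a test.

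The 6 other loci were not called. MIR7706 had 7, 10 and 27 counts under control siRNA and 32, 45 and 28 under La siRNA. In CPM the arms did not overlap, but control replicate 3 stood above the other control libraries and near La knockdown replicate 3 (8.82 CPM). The log2 fold change was 1.49 (SE 0.46, edgeR adjusted p = 0.0969), and without control replicate 3 it was 2.23 (edgeR adjusted p = 0.0255). That was the 1 fit of the 6 that left out a library in which MIR7706 was called. Over those 6 fits the log2 fold change ran from 1.15 to 2.23 and the edgeR adjusted p from 0.0255 to 0.288.

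MIR1908 had 12, 23 and 16 counts under control siRNA and 42, 38 and 30 under La siRNA in PCG_29985. The arms did not overlap, and the log2 fold change was 1.34 (SE 0.38, edgeR adjusted p = 0.0761). MIR330 had 48, 38 and 50 counts under control siRNA and 47, 120 and 68 under La siRNA. Its La knockdown replicate 2, at 35.4 CPM, stood above the others at 16.9 and 21.4 CPM. The log2 fold change was 1.00 (SE 0.34, edgeR adjusted p = 0.121), and it was 0.63 without La knockdown replicate 2.

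MIR2110 had 30, 22 and 38 counts under control siRNA and 24, 61 and 56 under La siRNA. La knockdown replicate 1, at 8.60 CPM, lay inside the control range, and the log2 fold change was 0.87 (SE 0.37, edgeR adjusted p = 0.186). MIR6850, in the RPL8 window, had 13, 16 and 13 counts under control siRNA and 23, 17 and 22 under La siRNA. The log2 fold change there was 0.81 (SE 0.36, edgeR adjusted p = 0.207), and the overlapping window PCG_49643 had 1, 1 and 0 counts under control siRNA and 5, 4 and 8 under La siRNA. MIR1292 had 10, 11 and 3 counts under control siRNA and 7, 19 and 12 under La siRNA, which overlap, and the log2 fold change was 0.86 (SE 0.53, edgeR adjusted p = 0.298). That window had 10.3 counts on average.

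By position, the 4 loci whose hairpins began within 50 bases of the start site of their window had log2 fold changes of 1.84 (MIR3615), 1.73 (MIR484), 1.49 (MIR7706) and 0.87 (MIR2110). The first 3 of these were the largest of the 12 windows. MIR1908, whose hairpin began 51 bases after the start site of PCG_29985 and so just missed the cutoff, followed at 1.34. MIR92B and MIR423, whose hairpins began 180 and 87 bases after a start site, were at 1.13 and 1.05. MIR3615 passed the filter in 0 control libraries and MIR7706 in 2, against 3 La knockdown libraries each, so their place in this order is descriptive. The other loci within 50 bases, MIR484 and MIR2110, were at 1.73 and 0.87, so no order by distance is read from these values. Measured to any host transcript start, MIR330 (1.00) and MIR6850 (0.81) also began within 50 bases. No test of distance was run.

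**Figure D3:**
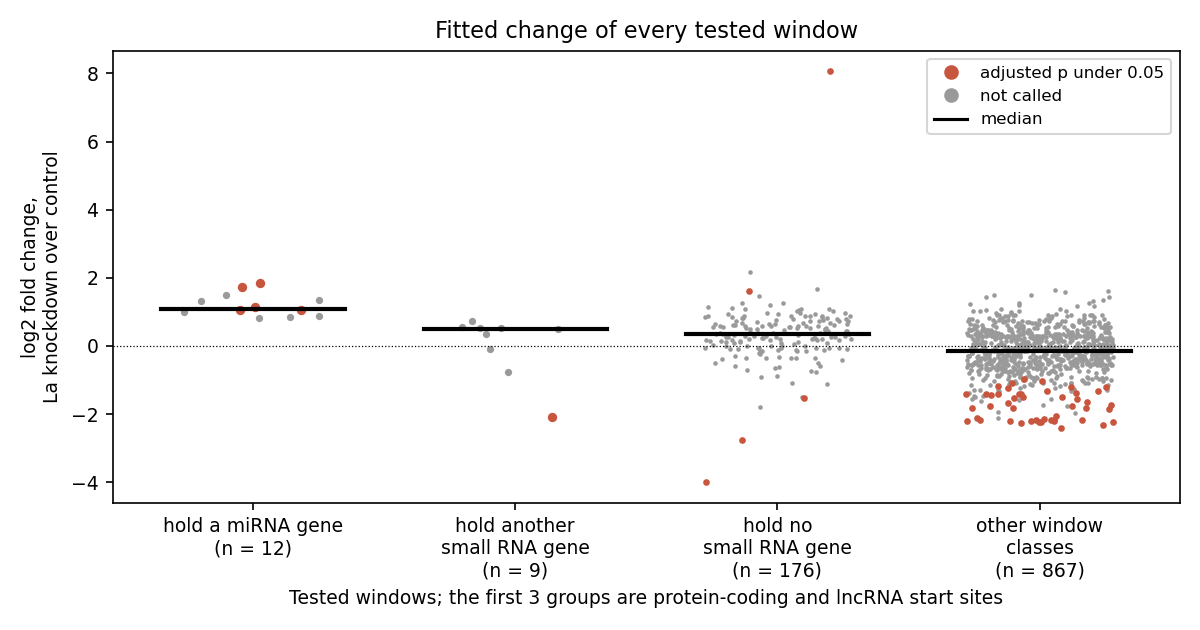
Fitted log2 fold change of each of the 1064 tested windows, with windows at an adjusted p under 0.05 in red and the median of each group as a bar. The 12 windows with a miRNA gene lie between 0.81 and 1.84, around a median of 1.09, and windows of other classes have a median of -0.15.

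The median log2 fold change of the 12 windows was 1.09, and 1.09 with 1 window per locus. Among the 7 windows that passed the filter in all 3 control libraries it was 1.05. The median was -0.05 over all windows tested and 0.39 over the 197 protein-coding and lncRNA windows. It was 0.50 over 9 protein-coding and lncRNA windows that held another small RNA gene and 0.34 over 176 that held none. The arms did not overlap at 10 of the 12 windows, or 8 of the 10 loci, beside 14.1% of all windows tested and 25.9% of protein-coding and lncRNA windows with every La knockdown library above every control library. The 2 other windows called higher were lncRNA_6325 and lncRNA_49543, named after their values were seen, and neither holds a miRNA gene.

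Together the 12 windows held 0.121%, 0.118% and 0.122% of all counts under control siRNA and 0.205%, 0.256% and 0.258% under La siRNA, which do not overlap. The means were 0.120% ± 0.00241 and 0.240% ± 0.0300 (SD, n = 3), a ratio of 1.99. Nearly all reads of MIR423 and MIR1908 enter these shares by 2 overlapping windows and so count more than once. With 1 window per locus the means were 0.0639% ± 0.00165 and 0.129% ± 0.0164 (SD, n = 3), a ratio of 2.01. With 1 window per locus and without MIR423, the share was 0.00780% ± 0.000925 and 0.0181% ± 0.00376 (SD, n = 3), a ratio of 2.32. The 185 other tested protein-coding and lncRNA windows held 1.91% ± 0.315 and 2.51% ± 0.878 of the counts (SD, n = 3). La knockdown replicate 2 was the highest library at 6 of the 10 loci. That library also had the largest share of counts in lncRNA windows, 3.45% against 1.42% to 2.06% in the other five, and in rRNA windows, 54.5%. Without that library the log2 fold change was 0.63 in place of 1.00 at MIR330, 0.51 in place of 0.86 at MIR1292 and 1.45 in place of 1.73 at MIR484. The share of the 12 windows, most of it MIR423, differed by 0.112 percentage points between the arms without it and by 0.120 with it. Its part in the differences was not tested.

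**Figure D4:**
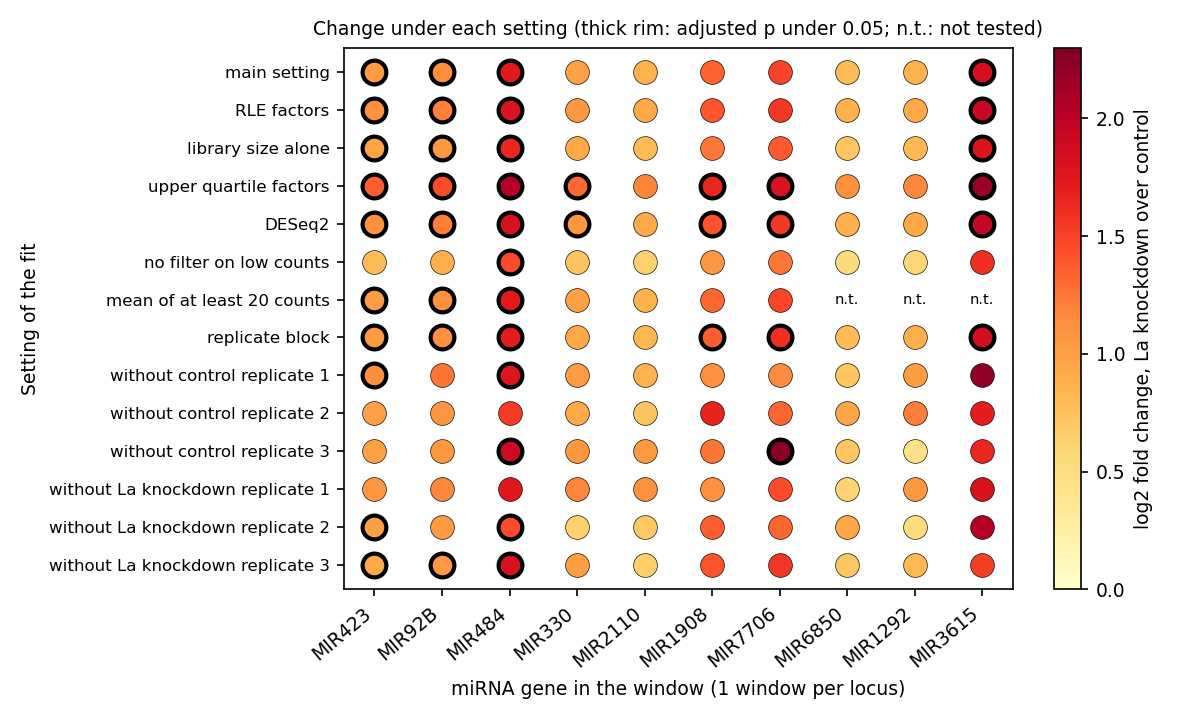
Log2 fold change (color) of 1 window per locus under the main setting and each alternative, with a thick rim where the adjusted p was under 0.05. Every value is above 0, and no locus has a thick rim without control replicate 2 or without La knockdown replicate 1.

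Calls depended on the method. DESeq2 and upper quartile factors each called 9 of the 12 windows higher, beside 2.16% and 5.45% of all windows, and a block for the replicate number called 8, beside 1.88%. Without control replicate 2, 0 of the 12 windows were called, and 8 had an unadjusted p under 0.05 (edgeR). Over all 1140 windows tested there, 2 were called higher and 63 were higher at that unadjusted p. Without La knockdown replicate 1, 0 of the 12 were called, and 10 had an unadjusted p under 0.05 (edgeR). Over all 1121 windows tested there, 0 were called higher or lower and 72 were higher at that unadjusted p.

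The miRNA windows below the filter were read too thinly for a test. They numbered 82, of which 61 had a read, with 495 reads in all and a median of 3. Just outside the filter were PCG_32447, which holds MIR3613, with 8, 3 and 3 counts under control siRNA and 5, 17 and 7 under La siRNA, and 2 overlapping windows of MIR762 with 30 and 29 reads. Just inside were MIR1292 with 62 reads and MIR3615 with 65. The 82 windows held a mean of 0.00189% ± 0.000420 of the counts under control siRNA and 0.00303% ± 0.000442 under La siRNA (SD, n = 3), a ratio of 1.60. In the 50256 other protein-coding and lncRNA windows below the filter the ratio was 1.26.

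The hairpins were rich in G and C, with a median of 66.3% over the 10 with a sequence in RefSeq. By comparison, 59 hairpins in start windows below the filter had a median of 71.0% and all 1562 human hairpins one of 52.1%. The run UUUU, searched on the RNA strand of the hairpin, occurred in 5 of the 10 hairpins, in 5 of those 59 and in 26.1% of all hairpins. The longest runs were of 6 in MIR484 and MIR92B, a length found in 2.82% of all hairpins. A match of letters is not a La site.

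The genes that make and use miRNAs were hardly read at their own start sites. Of 24 such genes, 21 had a window in the table, and 1 of their 52 windows was tested. This was PCG_36626 of DDX5, an RNA helicase of the Drosha complex, whose log2 fold change was 0.74 (SE 0.51, edgeR adjusted p = 0.351). The highest total among the other 51 was 30 reads, so start-site small RNA gives no view of the levels of Drosha, Dicer or Argonaute.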

How the data were processed

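The table of raw counts of 53603 windows in 6 libraries was used as deposited by the authors. Trim Galore, Bowtie2, bedtools and edgeR with GRCh38 are named per the submitters' processing notes, without versions. Strand use and the treatment of multi-mapping reads are not given in the sources used here. The authors' deposited comparison holds log2 fold changes, a score (F statistic) and p-values for 53603 windows. Its scaling and any filter are not stated.

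Windows were filtered with filterByExpr (about 3.00 CPM in at least 3 libraries) and tested with edgeR 4.0.16 in R 4.3.3, with TMM factors, a quasi-likelihood model of the arm and Benjamini-Hochberg adjustment at 0.05. Standard errors came from the log2 fold change and F. The fit was tested on simulated data. Alternatives were other scalings, DESeq2 1.42.0, other filters, a replicate block and leaving out each library. Window starts were shifted by 1 and a start site was taken as base 151 of the window on the plus strand or base 250 on the minus strand. Names came from GENCODE release 29 starts within 50 bp, and miRNA positions from RefSeq GRCh38.p14. All 12 windows were named by rule, with SSB and the 3 best-read miRNA windows outside the set. The members and lists were chosen with earlier results of these data known, so no test over the set is reported.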

Additional observations from a re-analysis of the deposited data

How the results depend on the processing

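Of 153 refits of the 12 windows, 118 kept their side of the threshold, 23 lost a call, 12 gained one and 0 changed direction. The 5 windows called higher became 9 with upper quartile factors, 9 with DESeq2, 1 without a filter on low counts and 8 with the replicate block, and 0 to 4 when a library was left out. The 0 came without control replicate 2, with 8 at an unadjusted p under 0.05, and without La knockdown replicate 1, with 10. Over all windows tested, 2 and 0 were called higher in these fits. The median of 1.09 became 1.41 with upper quartile factors, which moved the median of all windows by 0.32, and 0.84 without a filter. Among all windows, calls of 7 higher and 51 lower became 58 and 36 with upper quartile factors and 23 and 76 with DESeq2. They became 20 and 88 with the replicate block, and 4 and 104 of 21830 windows without a filter. Leaving out a library gave 0 to 21 windows called higher. The difference in share, 0.120 percentage points, became 0.0647 with 1 window per locus, 0.634 without rRNA, 5S rRNA and tRNA windows in the total and 0.0110 without MIR423. Hairpins that began at a start site, 0 within 20 bases, were 4 within 50 bases and 2 with any host transcript. Shares and hairpins changed with their definitions. Otherwise the cause was not tested. Same-numbered libraries had correlations of deviations of 0.15, 0.24 and -0.47, so the replicate numbers showed no pairing. The loci with the fewest reads, MIR1292 and MIR3615, had means of 10.3 and 10.8 counts.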
